A study of Homo sapiens with 15 samples.

Results

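The 10 genes described here encode the sensors of the unfolded protein response (UPR), the transcription factors that act under them, the proteases that release ATF6, and the inducible regulator of the eIF2 phosphatase. They were taken from the table by symbol and make up 10 of the 59608 genes in the table. 9 of them averaged 10 normalized counts or more across the libraries and were tested, among 13561 genes in all, and ATF6B fell below this filter. RNA came from MDA-MB-231 cells, an established human line of triple-negative breast cancer, grown in 2D in 10 cm dishes and exposed for 6 h to ZJ-101, a synthetic compound simplified from superstolide A, a macrolide of a sea sponge. The 5 groups were 0.1% DMSO and 0.5, 5, 50 and 500 nM ZJ-101, with 3 replicate libraries each, which the labels of the ZJ-101 groups call biological replicates, and all 4 doses were compared with the same 3 DMSO libraries. The comparison asks how the transcripts of the ER stress machinery moved with dose before the cells change shape.

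The 15 libraries held 12415519 to 15284762 reads on genes. Mitochondrial genes took 0.889% to 2.06% of them. Replicates of a group differed by 2.04 to 16.5 in chi-square per degree of freedom, and 0.5 nM replicate 2 stood apart from its group at 11.1 and 16.5. Of the markers of the line, VIM, CD44 and AXL were each at 9275 normalized counts or more in all libraries, ESR1 had a median of 0 and PGR reached 17.3 at most, while SPARC, also listed as expressed, was at 1.06 to 6.18. ERBB2, EPCAM and CDH1, listed as low, were at 1136 to 1328, 266 to 320 and 107 to 206 normalized counts. Of the markers of other cell types, PTPRC (leukocytes) was at 0 to 3.53 and ACTA2 at 4.3 to 17.5, while PECAM1 (endothelium) was at 201 to 321 and COL1A1 at 165 to 224.

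The UPR is started by 3 transmembrane proteins that sense misfolded protein in the lumen of the endoplasmic reticulum (ER). IRE1, the product of ERN1, cuts the XBP1 transcript so that it can encode an active factor, ATF6 travels to the Golgi and is released there by the site-1 and site-2 proteases (MBTPS1 and MBTPS2), and PERK, the product of EIF2AK3, phosphorylates eIF2, which slows translation but favours that of ATF4. ATF4 induces DDIT3, which encodes CHOP, and PPP1R15A, which encodes GADD34 and brings the phosphatase back to eIF2. Much of this control acts on proteins and on splicing, and the values below are transcript levels per gene, which do not separate spliced from unspliced XBP1.

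By exact letters, XBP1 differed from the other 9 genes in a promoter element. The ER stress response element (ERSE) has the letters CCAAT, 9 further bases and CCACG, and is the classical binding site of ATF6 with its partners in promoters of ER chaperones. Promoter windows of 300 bases, from 250 before to 50 after the start, were taken from RefSeq on GRCh38.p14 for all 10 genes (13 windows). Both strands were searched for exact matches, so variants of the element were not counted. The windows of DDIT3 hold CCAAT, 9 further bases and CCACT, which differs from the element in its last base only. An exact match was carried by 25 of the 27305 genes with a window (0.0916%), and of the 10 only by XBP1. Its window, chr22:28800520-28800819 on the minus strand, is shown with the element and the other copies of CCACG in capitals, because XBP1 carries the largest change of the group.

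XBP1 promoter: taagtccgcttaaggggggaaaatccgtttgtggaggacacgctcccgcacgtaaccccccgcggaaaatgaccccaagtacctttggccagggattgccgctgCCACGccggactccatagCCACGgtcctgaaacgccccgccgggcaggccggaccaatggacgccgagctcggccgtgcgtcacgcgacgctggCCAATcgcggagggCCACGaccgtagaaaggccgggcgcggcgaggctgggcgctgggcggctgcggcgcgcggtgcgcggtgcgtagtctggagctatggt

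The element of XBP1 lay at chr22:28800603-28800621, with its first base 52 bases before the start. It is set beside the elements of 5 other genes that take part in folding or in UPR control, all of which fell at 500 nM. That of SYNPO, a gene of the actin cytoskeleton that rose, is added, with both ends in capitals. Elements not shown include those of the ER genes CANX and SERP1, which did not pass at any dose (log2 fold change -0.09 each at 500 nM).
XBP1: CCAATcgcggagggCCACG
HSPA5: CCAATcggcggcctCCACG
CALR: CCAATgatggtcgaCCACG
PDIA6: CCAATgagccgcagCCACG
ERO1B: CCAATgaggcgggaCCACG
FICD: CCAATgggagtggcCCACG
SYNPO: CCAATctacccgccCCACG

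The CCACG end alone was found in windows of ATF4, EIF2AK3, MBTPS1, PPP1R15A and XBP1, which is 5 of the 10 genes, and in 42.1% of all genes, so it does not set them apart. TGACGTG, the core of the XBP1 site called UPRE, was in the windows of 2.4% of all genes, and TGATGCAA, the composite site of ATF4 and C/EBP factors, in those of 1.08%. Neither run of letters was in a window of the 10 genes. A match describes the letters of a window and does not show that a factor binds there.

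At the highest dose of ZJ-101 the transcripts of XBP1, ATF6 and EIF2AK3 were below DMSO and those of ERN1 and PPP1R15A above it. PPP1R15A was highest at 50 nM. ATF4 and DDIT3 did not pass the test at any dose. In RNA of whole dishes, fewer cells with a transcript and less of it per cell cannot be told apart. At 500 nM, 4 of the 9 tested genes fell (XBP1, ATF6, EIF2AK3 and MBTPS1) and 2 rose (ERN1 and PPP1R15A), against 17.8% of all tested genes that changed in either direction, 10.1% down and 7.69% up (limma with Benjamini-Hochberg adjustment). At 50 nM, 3 fell (XBP1, ATF6 and EIF2AK3) and 1 rose (PPP1R15A), where 6% of all genes changed, 3.71% down and 2.29% up. At 5 nM XBP1 alone passed the threshold, against 2.18% of all genes (1.71% down), and so it did at 0.5 nM, against 1.17% (0.922% down). Without 0.5 nM replicate 2, which enters every comparison through the shared estimate of the spread, the numbers up and down were the same at 0.5, 50 and 500 nM, and 2 genes fell at 5 nM, where ATF6 then passed (adjusted p = 0.0451). A dose and DMSO did not overlap for 2, 4, 5 and 8 of the 9 genes at 0.5, 5, 50 and 500 nM, which was the case for 18.1%, 23.2%, 24.8% and 38.5% of all genes. Of neighbouring doses, 0.5 and 5 nM did not overlap for 1 gene, 5 and 50 nM for 6 genes and 50 and 500 nM for 8 genes, against 10.6%, 23.7% and 20.2% of all genes.

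**Figure D1:**
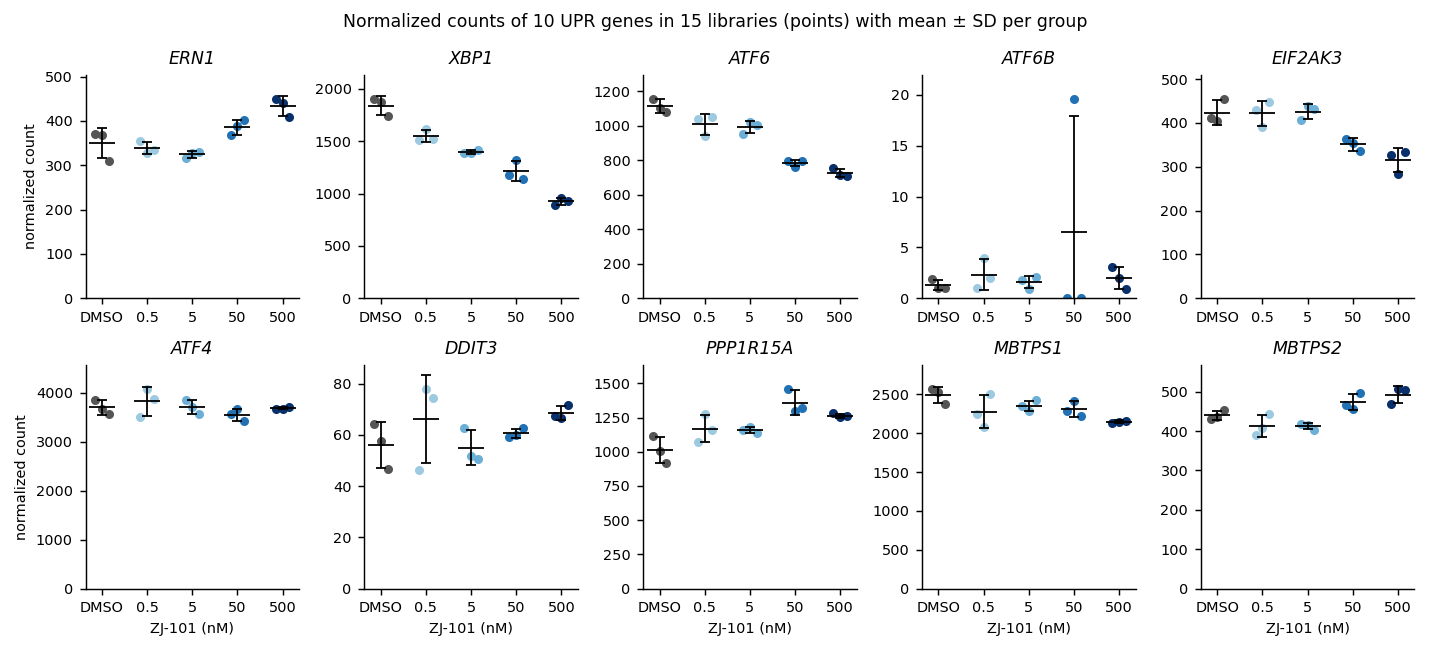
Normalized count (vertical axis, starting at 0) of each of the 10 genes in the 15 libraries (points) by group, DMSO and 0.5 to 500 nM ZJ-101, with the mean and SD of 3 libraries as bars. XBP1 steps down from 1736 to 1907 in DMSO to 892 to 957 at 500 nM, ATF4 lies between 3422 and 4078 throughout, and ATF6B has 1 library at 19.6 above 14 at or near 0.

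Levels were compared between genes per kilobase of the Ensembl canonical transcript. In DMSO, ATF4 was highest of the 10 at 2603 normalized counts per kb, followed by XBP1 at 1027, MBTPS1 at 569.8 and PPP1R15A at 430.6. The 3 sensors were far lower, ATF6 at 149, EIF2AK3 at 93.3 and ERN1 at 44.3 normalized counts per kb, with MBTPS2 at 98.9 and DDIT3 at 62.3 among them. The factors and the regulator were thus above the sensors that govern them, apart from DDIT3. At 500 nM XBP1 was at 517.3 normalized counts per kb and PPP1R15A at 537.8, so that PPP1R15A, XBP1 and MBTPS1, the last at 490.5, lay close together.

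**Figure D2:**
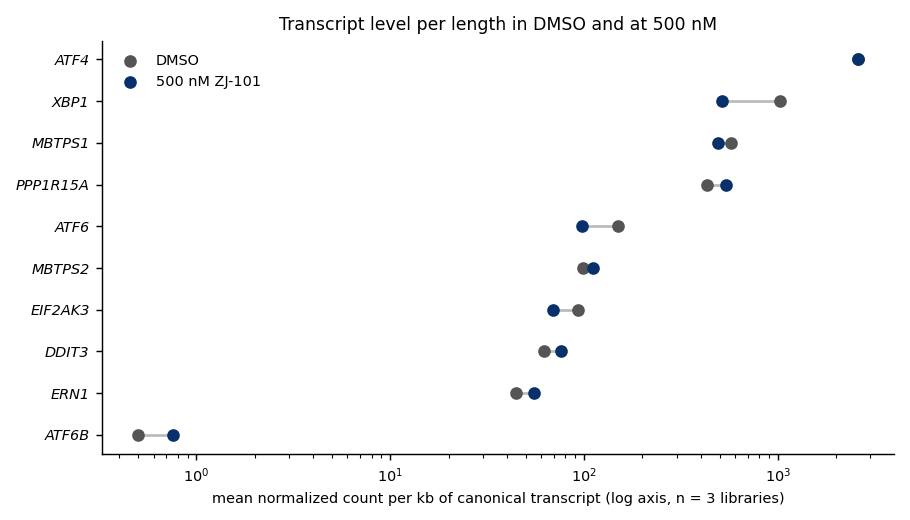
Mean normalized count per kilobase of canonical transcript (horizontal log axis, n = 3 libraries) in DMSO (grey) and at 500 nM ZJ-101 (blue). ATF4 is at 2603 and 2595, its 2 points on top of each other, while XBP1 moves from 1027 to 517.3.

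ATF6 encodes the sensor that is itself a transcription factor once cut, and lies on chromosome 1 (161766298 to 161977574, plus strand). Its normalized counts were 1157, 1101 and 1082 in DMSO, 1037, 939 and 1049 at 0.5 nM, 953, 1021 and 1006 at 5 nM, 794, 761 and 792 at 50 nM, and 753, 714 and 709 at 500 nM. Every treated library was below every DMSO library, and the libraries at 50 and 500 nM were also below all those at 0.5 and 5 nM. ATF6 fell by 0.51 on the log2 scale at 50 nM (adjusted p = 3.0e-06) and by 0.62 at 500 nM (standard error 0.05, adjusted p = 1.0e-07), to 0.652 of its DMSO level. At 0.5 and 5 nM it was -0.14 and -0.16 and did not pass (adjusted p = 0.21 and 0.14). The largest step of ATF6 was from 5 to 50 nM, at -0.34 (adjusted p = 5.1e-04), a step at which 5.01% of all genes and 3 of the 9 changed, the others being XBP1 and EIF2AK3. From 50 to 500 nM the difference was -0.11 (adjusted p = 0.40, 95% confidence interval -0.22 to 0.003).

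EIF2AK3, which encodes PERK, lies on chromosome 2 (88556741 to 88691518, minus strand). It had 410, 404 and 456 normalized counts in DMSO, 429, 389 and 447 at 0.5 nM, 406, 438 and 432 at 5 nM, 363, 355 and 335 at 50 nM, and 327, 283 and 333 at 500 nM. The lower doses overlapped with DMSO, and the libraries at 50 and 500 nM were all below it. The log2 fold change was -0.006 at 0.5 nM and 0.008 at 5 nM, with 95% confidence intervals of -0.17 to 0.16 and -0.15 to 0.17. At 500 nM EIF2AK3 fell by 0.43 on the log2 scale (standard error 0.08, adjusted p = 5.5e-04). The fall at 50 nM, -0.27 (adjusted p = 0.046), and the step from 5 to 50 nM, -0.28 (adjusted p = 0.046), lay close to the threshold. With DESeq2 or no filter on low values the fall at 50 nM did not pass. The same was so without any single library of DMSO, 5 nM or 50 nM, and without 0.5 nM replicate 1 or either of 500 nM replicates 1 and 3 (highest adjusted p 0.21). The step did not pass in the same cases (adjusted p at most 0.16), except that it passed without DMSO replicate 3.

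ERN1, which encodes IRE1, is on chromosome 17 (64039080 to 64130819, minus strand) and was the only sensor that rose. Its normalized counts were 371, 368 and 310 in DMSO, 354, 327 and 334 at 0.5 nM, 316, 327 and 331 at 5 nM, 367, 387 and 402 at 50 nM, and 450, 441 and 409 at 500 nM. All 3 libraries at 500 nM were above DMSO, whereas the other doses overlapped with it. ERN1 rose by 0.31 on the log2 scale at 500 nM (standard error 0.07, adjusted p = 0.0058), to 1.24 times its DMSO level, and the difference of 0.14 at 50 nM did not pass (adjusted p = 0.34). At 500 nM the transcript of the nuclease thus rose and XBP1, the transcript that it cuts, fell.

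ATF6B, a paralog of ATF6 on chromosome 6 (32115264 to 32128253, minus strand), could not be followed. It had 0 to 4.0 normalized counts in 14 libraries and 19.6 in 50 nM replicate 2. The transcript of ATF6B has 3 copies on alternate contigs of the reference, each aligned over at least 90% of its length with at least 99% identity, and the other 9 genes have none. Among the 56 protein-coding genes within 500 kb of ATF6B, 10.7% passed the filter, against 61.3% of all protein-coding genes. The part of these copies in the low counts was not tested.

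XBP1, the factor under IRE1, fell at all 4 doses. It lies on chromosome 22 (28794555 to 28800597, minus strand), and its normalized counts were 1907, 1876 and 1736 in DMSO, 1511, 1620 and 1516 at 0.5 nM, 1383, 1390 and 1418 at 5 nM, 1181, 1321 and 1143 at 50 nM, and 892, 957 and 931 at 500 nM. No group overlapped with its neighbour in dose, so the 5 groups stood in strict order. The log2 fold changes against DMSO were -0.25, -0.40, -0.60 and -0.99 (standard error 0.06 each, adjusted p = 0.036, 7.4e-04, 6.7e-07 and 4.4e-10). At 500 nM the level of XBP1 fell by 49.6%. Per step of dose, taken as ranks, the slope was -0.23 (adjusted p = 6.1e-09), and XBP1 ranked 3 of all 13561 genes by the p of the slope. Between 50 and 500 nM it fell by a further 0.39 (adjusted p = 5.1e-04) and was the only one of the 9 to change there, where 2.28% of all genes did.

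The steps of XBP1 at the lower doses were less firm. From 0.5 to 5 nM the difference was -0.15 (adjusted p = 0.55), at a step where 0.118% of all genes changed, and from 5 to 50 nM -0.20 (adjusted p = 0.040). The call at 0.5 nM was lost with no filter on low values and with only the 6 libraries of that dose and DMSO. It was also lost without any single library of DMSO or 5 nM, either of 0.5 nM replicates 1 and 3, or 500 nM replicate 3 (highest adjusted p 0.18). The step from 5 to 50 nM was lost with no filter, and without either of DMSO replicates 1 and 2, any single library of 5 nM, either of 50 nM replicates 1 and 3, or 500 nM replicate 3 (highest adjusted p 0.18). At 5, 50 and 500 nM XBP1 passed in all 24 alternatives.

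ATF4, the factor under PERK, did not follow its sensor. It lies on chromosome 22 (39519695 to 39522683, plus strand) and had 3850, 3668 and 3565 normalized counts in DMSO, 3502, 4078 and 3871 at 0.5 nM, 3847, 3704 and 3562 at 5 nM, 3562, 3668 and 3422 at 50 nM, and 3670, 3672 and 3706 at 500 nM. The 3 libraries at 500 nM lay inside the range of DMSO. The log2 fold change there was -0.004 with a 95% confidence interval of -0.11 to 0.10 (adjusted p = 0.97), so that a change of ATF4 as large as that of EIF2AK3, ERN1 or PPP1R15A falls outside the interval. ATF4 has 2 pseudogenes of similar sequence, ATF4P3 and ATF4P4, with which it may share reads. They were called with looser limits of length and identity than the copies of ATF6B.

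DDIT3, which encodes CHOP, had the fewest normalized counts of the 9 tested genes and lies on chromosome 12 (57516588 to 57521737, minus strand). It had 64.4, 57.7 and 46.7 normalized counts in DMSO, 46.4, 78.1 and 74.3 at 0.5 nM, 62.9, 51.7 and 50.5 at 5 nM, 59.1, 60.0 and 62.8 at 50 nM, and 67.3, 66.8 and 71.5 at 500 nM. The 500 nM libraries lay just above those of DMSO, with a log2 fold change of 0.29 that did not pass (adjusted p = 0.30). The 95% confidence interval of -0.08 to 0.67 does not exclude a change of the size seen for ERN1. DDIT3 shares 39.6% of its exon bases with MARS1 on the opposite strand, which averaged 2885 normalized counts, and the strandedness of the counting is not given in the sources used here.

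PPP1R15A rose at 50 and at 500 nM. It encodes GADD34 and lies on chromosome 19 (48872212 to 48876059, plus strand). The normalized counts were 1113, 1003 and 920 in DMSO, 1074, 1274 and 1160 at 0.5 nM, 1163, 1178 and 1137 at 5 nM, 1461, 1298 and 1322 at 50 nM, and 1280, 1251 and 1260 at 500 nM. All libraries at 5, 50 and 500 nM were above DMSO, and those at 50 nM were also above those at 500 nM. It rose by 0.43 on the log2 scale at 50 nM (standard error 0.07, adjusted p = 3.8e-04) and by 0.32 at 500 nM (adjusted p = 0.0022), with a difference between these doses of -0.10 that did not pass (adjusted p = 0.56). At 0.5 and 5 nM it was 0.21 and 0.20 (adjusted p = 0.15 and 0.16).

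The site proteases moved little. MBTPS1, on chromosome 16 (84053761 to 84116942, minus strand), encodes the site-1 protease of the Golgi and had 2574, 2527 and 2381 normalized counts in DMSO and 2127, 2150 and 2163 at 500 nM, with 2078 to 2509 over the 9 libraries of the other doses. It fell by 0.22 on the log2 scale at 500 nM (standard error 0.06, adjusted p = 0.012), and this call did not pass without DMSO replicate 1 (adjusted p = 0.0597). MBTPS2, on the X chromosome (21839617 to 21885423, plus strand), encodes the site-2 protease and had 430, 436 and 453 normalized counts in DMSO and 468, 508 and 503 at 500 nM, with 389 to 496 over the other doses. Its groups in DMSO and at 500 nM did not overlap, but the log2 fold change of 0.16 did not pass (adjusted p = 0.084, 95% confidence interval 0.03 to 0.30).

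**Figure D3:**
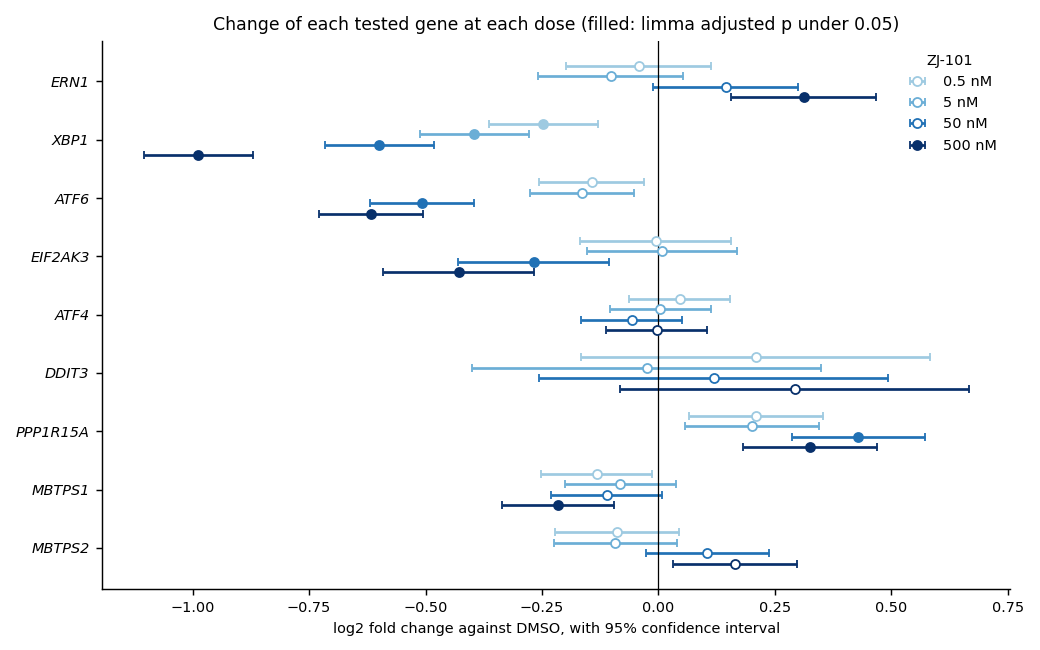
Log2 fold change against DMSO (horizontal axis) of the 9 tested genes at 4 doses, with 95% confidence intervals as bars and filled points where the adjusted p passed the threshold of 0.05. XBP1 moves further left at each dose, from -0.25 to -0.99, and ATF6 drops between 5 nM (-0.16) and 50 nM (-0.51).

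Over all doses, 4 of the 9 genes had a slope down (XBP1, ATF6, EIF2AK3 and MBTPS1) and 3 a slope up (ERN1, PPP1R15A and MBTPS2), against 9.33% and 8.23% of all genes. The slopes were -0.16 for ATF6 (adjusted p = 3.2e-07), -0.11 for EIF2AK3 (adjusted p = 6.5e-04), 0.08 for ERN1 (adjusted p = 0.012) and 0.09 for PPP1R15A (adjusted p = 0.0023). Those of the proteases were small, -0.04 for MBTPS1 (adjusted p = 0.045) and 0.05 for MBTPS2 (adjusted p = 0.044). The slope of ERN1 did not pass without 500 nM replicate 1 or 2 (adjusted p at most 0.0533). That of MBTPS2 did not pass with no filter on low values, nor without DMSO replicate 1, either of 0.5 nM replicates 1 and 2, either of 50 nM replicates 1 and 3, or any single 500 nM library (adjusted p at most 0.14). That of MBTPS1 did not pass with no filter, with the treated libraries alone, nor without any single library of DMSO or 500 nM, 0.5 nM replicate 3, either of 5 nM replicates 1 and 2, or either of 50 nM replicates 1 and 3 (adjusted p at most 0.38). With the 12 treated libraries alone the slope of PPP1R15A was 0.06 and did not pass (adjusted p = 0.11).

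Across the 15 libraries, which share their dose groups, the members were related in both directions, and these values are a description. Of 36 pairs of tested members, 18 had a negative Pearson r, and ATF4 had an r of 0.00362 with MBTPS1 and 0.033 with PPP1R15A. Selected pairs follow. ATF6 had a Pearson r of 0.914 with XBP1 and 0.897 with EIF2AK3. ERN1 had an r of -0.886 with EIF2AK3. DDIT3 had an r of 0.659 with ATF4, weaker than pairs such as XBP1 with EIF2AK3 (0.805) or EIF2AK3 with MBTPS2 (-0.777). The genes whose profile over the 15 libraries was most like that of a member, out of 13560, included PGF (r = 0.981) for XBP1, POFUT1 and CD44 (r = 0.984 each) for ATF6, and CD276 (r = 0.947) and UGDH (r = 0.946) for EIF2AK3. For the members that rose they were CLDN23 (r = 0.946) and USP30 (r = 0.904) for ERN1, and G0S2 (r = 0.878) and PLP2 (r = 0.875) for PPP1R15A. For MBTPS1 they were ITGB3 (r = 0.924) and APLP2 (r = 0.918).

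The genes under each arm were described with 6 lists, each set beside the median log2 fold change of all genes at 500 nM, 0.003. Each gene was placed in a single list, but a gene listed under ATF6 or XBP1 may also answer to the other factor. Differences between lists were not tested and are not differences between separate arms. Among 14 targets of ATF6, which are chaperones, folding enzymes and degradation factors of the ER, 13 fell and 1 rose at 500 nM, against 10.1% and 7.69% of all tested genes, with a median of -0.43. At 5 and 50 nM 5 and 9 of them were down, against 1.71% and 3.71% of all genes, with medians of -0.16 and -0.32. HSPA5, which encodes the chaperone BiP, fell most (14143 ± 313 to 5439 ± 190 normalized counts, SD, n = 3 each, log2 fold change -1.38, adjusted p = 1.5e-13), and MANF, a secreted ER stress factor, fell by 0.86 (adjusted p = 1.3e-09). The 1 that rose was SYVN1, the ubiquitin ligase of ER-associated degradation, at 0.29 (adjusted p = 2.9e-04).

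Among 16 targets of XBP1, which serve import into the ER, folding and export, 7 fell and 2 rose at 500 nM (10.1% and 7.69% of all genes), with a median of -0.12. SEC24D, a coat subunit of ER export vesicles, had a log2 fold change of -1.23 (1224 ± 43.3 to 521 ± 26.5 normalized counts, SD, n = 3 each, adjusted p = 1.3e-10). DNAJC3, a co-chaperone of BiP that also inhibits eIF2 kinases, had one of -1.10 (adjusted p = 9.5e-10), and it passed at all 4 doses, as XBP1 did. The translocon subunits SEC61A1, SEC61B and SEC61G did not pass, with log2 fold changes of 0.06, -0.11 and -0.14 (adjusted p = 0.35, 0.29 and 0.36). SRPRB, a subunit of the signal recognition particle receptor, and SSR3, of the translocon-associated complex, rose by 0.38 and 0.21 (adjusted p = 0.0010 and 0.0012).

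The list of partners and substrates of IRE1 held 12 tested genes with a median of -0.01. The subunits of the tRNA ligase complex that joins the cut XBP1 transcript (RTCB, DDX1, FAM98B, RTRAF and ZBTB8OS) had log2 fold changes between -0.04 and 0.01. 3 genes fell, where 10.1% of all genes did, namely COL6A1 (-0.71, adjusted p = 8.4e-08) and SCARA3 (-0.55, adjusted p = 7.1e-07), which are known substrates of decay by IRE1, and MAP3K5 (-0.60, adjusted p = 3.2e-06), which encodes the kinase ASK1. BLOC1S1, another known substrate, had a log2 fold change of 0.37 that did not pass (adjusted p = 0.46), and neither did PDGFRB at -0.34 (adjusted p = 0.32). BLOC1S1 was close to the filter, at a mean of 13.8 normalized counts, with 41 reads in DMSO and 55 at 500 nM. It shares 36.6% of its exon bases with overlapping genes, the largest overlap being on the same strand. Its response could thus hardly be followed. PDGFRB was also low, at a mean of 48.6.

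Of 16 targets of ATF4 and CHOP, 15 were tested and ASNS, at a mean of 6.35 normalized counts, was not. ASNS shares 49.3% of its exon bases with overlapping genes, the largest overlap being on the same strand. The part of this overlap in its low count was not tested. At 500 nM 5 fell and 2 rose, beside 10.1% and 7.69% of all genes, with a median of -0.13. The genes that rose were SLC7A5 (0.62, adjusted p = 1.9e-07) and SLC7A11 (0.43, adjusted p = 3.2e-04), which encode amino acid transporters. VLDLR, a lipoprotein receptor, and CEBPB, a transcription factor, had log2 fold changes of -0.83 and -0.72 (adjusted p = 7.8e-06 and 1.1e-05), and ERO1A, DDIT4 and CEBPG also fell. Classical targets of the pathway, namely TRIB3 (-0.13, adjusted p = 0.40), CHAC1 (-0.27, adjusted p = 0.33) and ATF3 (0.07, adjusted p = 0.83), did not pass.

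The eIF2 list, with the other kinases, the subunits of eIF2 and eIF2B and the phosphatase, had a median of 0.007. In it 2 of 16 genes changed at 500 nM, a share near the 17.8% of all genes. EIF2AK2, the kinase PKR, rose by 0.33 (adjusted p = 0.0016), and PPP1CB, a catalytic subunit of the phosphatase, fell by 0.21 (adjusted p = 0.0079). PPP1R15B, the constitutive counterpart of PPP1R15A, had a log2 fold change of 0.16 that did not pass (adjusted p = 0.098), and the difference between these 2 genes was not tested.

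Among 12 clients and partners of the site proteases, 3 fell and 2 rose at 500 nM (all genes, 10.1% and 7.69%), with a median of -0.05. INSIG1, which retains the SREBP precursors in the ER, and CREB3L1, another membrane-bound factor cut by these proteases, had log2 fold changes of -0.86 and -0.50 (adjusted p = 1.2e-05 and 5.3e-06), and GNPTAB had one of -0.28 (adjusted p = 0.014). CREB3L3 had one of 0.80 (adjusted p = 0.020) on 28.6 ± 2.51 and 50.6 ± 4.82 normalized counts (SD, n = 3 each), and this call was lost with no filter on low values and without either of DMSO replicates 1 and 2 or of 500 nM replicates 1 and 2 (highest adjusted p 0.0701). SCAP, the escort of the SREBPs, rose by 0.18 (adjusted p = 0.0074). SREBF1 and SREBF2 were at 0.03 and -0.09 at this dose (adjusted p = 0.78 and 0.31).

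**Figure D4:**
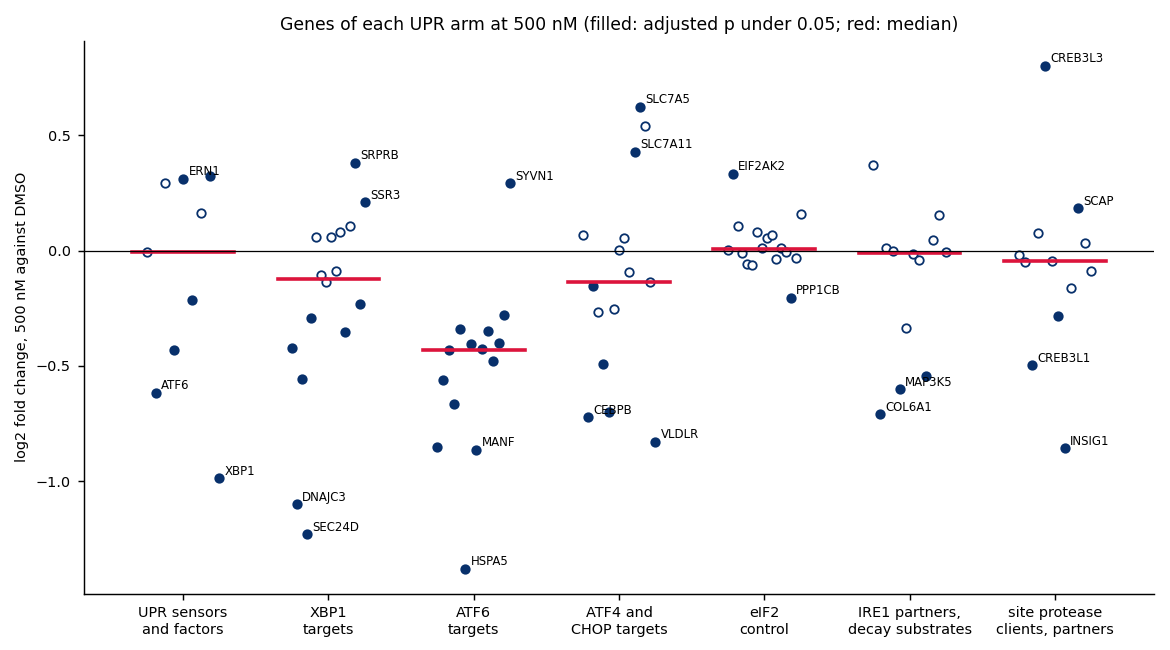
Log2 fold change at 500 nM (vertical axis) of the tested genes of the UPR sensors and factors and of 6 lists, with filled points where the adjusted p passed the threshold of 0.05 and red lines at the medians. The ATF6 targets sit lowest, with a median of -0.43 and SYVN1 alone above 0, while the eIF2 list stays near 0 with a median of 0.007.

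The promoter element of XBP1 defined a further set, which counts XBP1 itself and overlaps the list of ATF6 targets. Of the 25 genes with a whole ERSE in a window, 16 were tested, XBP1 among them, and 1, 6, 7 and 9 of them fell at 0.5, 5, 50 and 500 nM, against 0.922%, 1.71%, 3.71% and 10.1% of all genes. The medians were -0.08, -0.12, -0.13 and -0.29, against medians of all genes within 0.01 of 0. XBP1 was the one that fell at 0.5 nM. At 500 nM HSPA5 (-1.38) and ERO1B, an ER oxidase (-1.08, adjusted p = 1.8e-06), fell, as did XBP1 (-0.99) and CALR, the chaperone calreticulin (-0.85, adjusted p = 5.2e-10), while SYNPO rose (0.28, adjusted p = 0.0065). CANX and SERP1, which also carry the element, were at -0.09 each (adjusted p = 0.24 and 0.16). 5 of the 16 (CALR, CRELD2, HSP90B1, HSPA5 and PDIA6) are also ATF6 targets in the list above. All 5 fell at 500 nM, so these falls and that of XBP1 repeat results given above. The remaining falls at 500 nM were those of ERO1B, FICD and TRIM5, while 6 genes did not pass and 1 rose. Some of the pairs share 1 element between neighbouring genes, as CRELD2 and ALG12 do.

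**Figure D5:**
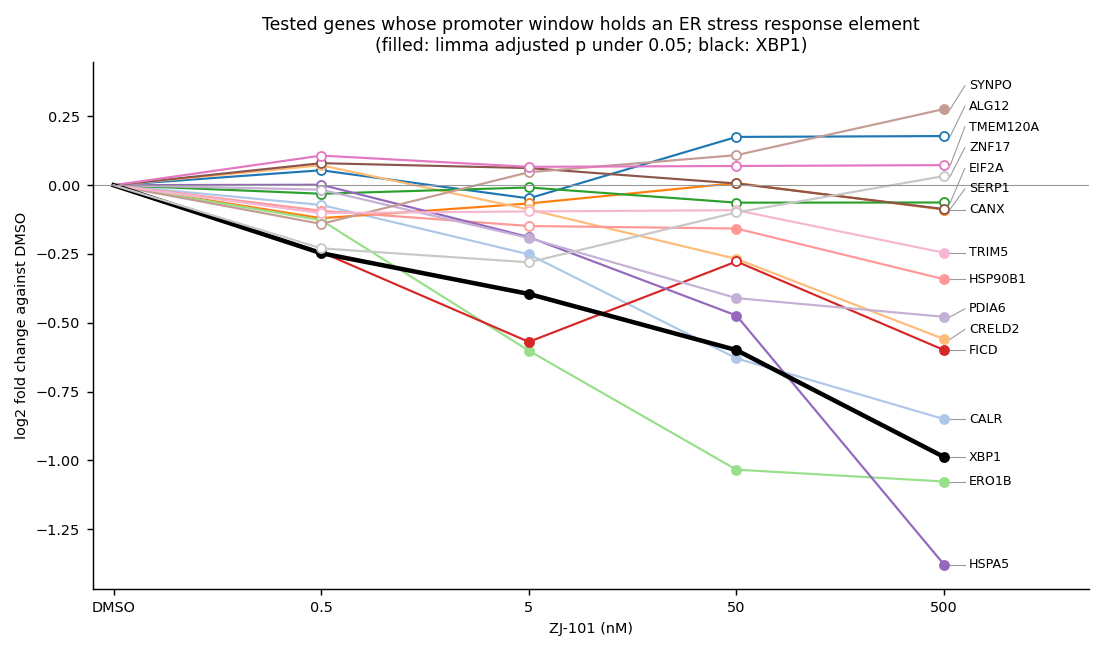
Log2 fold change against DMSO (vertical axis) by dose of ZJ-101 for the 16 tested genes whose promoter window holds a whole ERSE, with filled points where the adjusted p passed the threshold of 0.05. XBP1, in black, declines at every dose to -0.99, HSPA5 drops mainly between 50 nM (-0.47) and 500 nM (-1.38), and SYNPO ends highest at 0.28.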

How the data were processed

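Poly-A RNA was sequenced as paired reads in 15 libraries. The authors used HISAT2 for alignment to hg38 and htseq-count with GENCODE for counting, then divided each library by its DESeq2 size factor. Versions and strandedness are not given in the sources used here. The deposited values are these normalized counts (unit signal). Dividing by each library's step returned whole reads for 100% of values within 0.001, with size factors of 0.916 to 1.13.

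The scale was log2(normalized count + 1), and the test was limma 3.58.1 (R 4.3.3) with a mean-variance trend, for genes with a mean of at least 10. A single fit held all 5 groups (10 residual degrees of freedom). Contrasts were each dose against DMSO and neighbouring doses, and a second fit took the slope on dose rank. P was adjusted over all tested genes by Benjamini-Hochberg with a threshold of 0.05. Fold changes on this scale understate those of low genes. The method was tested on simulated data, with a spread estimated from these libraries and changes at the highest dose only. Intervals are 95%.

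Members and lists were chosen with earlier results of these data known. Named genes are the 10 members, up to 2 rises and 2 falls per list at 500 nM among genes past the threshold whose libraries did not overlap, and the 2 genes most like each changed member by Pearson r. Of these, 1 is not reported here. Other genes named in the lists, those named with the promoter element among them, were chosen after their values were seen. SPRING1 is listed as C12orf49. Positions and lengths came from GENCODE release 44, which held 93.79% of tested symbols, copies from minimap2 2.31-r1302, and promoters from RefSeq (GRCh38.p14). Python was 3.11.15. Alternatives were pseudocounts of 0.5 and 5, no filter, a mean of at least 50, a replicate block, TMM, edgeR 4.0.16 and DESeq2 1.42.0 on the recovered reads, leaving out each library, the 6 libraries of a dose and DMSO, and the 12 treated libraries.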

Additional observations from a re-analysis of the deposited data

How the results depend on the processing

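At 500 nM the calls of XBP1, ATF6, EIF2AK3, ERN1 and PPP1R15A passed in each of the 24 alternatives, and no called value of a member, or of a list gene that the naming rule picked, changed sign. With edgeR on the recovered reads 1067 genes rose and 1365 fell at 500 nM, and with DESeq2 985 rose and 1225 fell. With no filter on low values, which tests 31620 genes, 0 of the genes fell at 0.5 nM in place of 1. In that setting 1 changed between 5 and 50 nM in place of 3, and 1 of the site protease list rose in place of 2. With a mean of at least 50 the site protease list also had 1 rise, because CREB3L3, at a mean of 32.2, was not tested there. With only the 6 libraries of a dose and DMSO, 0 fell at 0.5 nM, 2 fell and 1 rose at 5 nM, 2 of the eIF2 list rose in place of 1, and 1 of the IRE1 list in place of 0. Leaving out each library in turn gave 0 to 1 genes down at 0.5 nM, 1 to 2 down at 5 nM, 1 to 5 changed between 5 and 50 nM and 1 to 3 with a slope up. In the lists at 500 nM it gave 1 to 2 up for the eIF2 list, 0 to 1 for the IRE1 list and 1 to 2 for the site protease list. ATF6 passed at 5 nM without 0.5 nM replicate 2, the library that stood apart. It also passed with only the 6 libraries of 5 nM and DMSO. The cause was not tested for any of these cases.

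Same-numbered replicates deviated together little, with correlations of -0.09 to 0.10 over 30 pairs. The median was 0.0121, against -0.00056 for pairs with other numbers. Of 15 libraries, 9 were closest to a library of their own number, a count that was not tested against chance. The numbers were not taken as pairs in the main fit. With the replicate number as a block, 1116 genes rose and 1390 fell at 500 nM, 4 of the members fell and 2 rose as before, 3 in place of 4 had a slope down, since MBTPS1 did not pass, and no other call of a member changed.

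DDIT3 had 169 to 213 reads per group, and a change of the size of that of ERN1 was not detectable for it. ATF6B had 4 to 18 reads per group and was not tested.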
